A study of Mus musculus with 36 samples.

Results

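*Crisp1*, *Serpina1f*, *Lcn5*, *Lcn8* and *Lcn9*, 5 genes known for the epithelium of the epididymis, were examined in RNA-seq libraries of epididymal white adipose tissue (eWAT). They were taken from the deposited table by gene symbol and account for 5 of its 24750 genes. They were selected because *Crisp1* and *Serpina1f* were high in some of the same libraries, so that the levels of these genes are given as a description of which libraries held them and whether they moved together.

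RNA came from the eWAT of 36 male C57BL/6 mice, 3 in each of 12 groups. The mice were wild type (WT) or CCL19-KI, in which murine *Ccl19* had been inserted at the *Adipoq* locus, active in adipocytes, and bred as a homozygous line apart from the WT mice. They were fed a normal diet (ND), a 40% high-fat diet (HFD) or a 60% HFD for 10 weeks. In the ligatured groups, periodontitis was induced with a ligature after 8 weeks of the diet, at 14 weeks of age, and lasted 2 weeks, and the other groups had no ligature. Each library is 1 mouse and is named by its group and replicate number.

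The epididymis is a long coiled duct in which sperm mature, and its epithelium secretes a different set of proteins along its length, under the control of androgens and of fluid from the testis. The epididymal fat pad lies against it and against the testis. *Lcn5*, *Lcn8* and *Lcn9* encode lipocalins, small carriers of lipophilic molecules secreted in the upstream part of the duct (Lcn5 binds retinoids). *Crisp1* encodes a cysteine-rich secretory protein that coats sperm, and *Serpina1f* encodes a member of the serpin family of protease inhibitors, close to the liver genes for alpha-1 antitrypsin.

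Libraries held 11962228 to 21581595 reads, so that 1 read was worth 0.0472 to 0.0834 normalized CPM (reads scaled to library size, the deposited unit), and 3 reads, taken as the floor of detection, 0.142 to 0.25. Adipocyte genes were found in all 36 libraries, with *Adipoq* (adiponectin) between 300.1 and 3937 normalized CPM and *Fabp4* between 2009 and 10912. The genotype of 2 libraries went against their labels. *Ccl19* was 19.2 in the library labelled WT ND replicate 2, against 0.507 to 4.51 in the other 17 WT libraries, and 0.687 in the library labelled CCL19-KI 60% HFD replicate 3, against 5.57 to 34.6 in the other 17 CCL19-KI libraries. *Gm2564*, one of the genes that separated the genotypes, was 41.9 in the former and 0 in the latter, against at most 0.16 in the other WT libraries and at least 11.6 in the other CCL19-KI libraries. Of the 4 genes that separated the other 34 libraries by genotype, 3 put the former on the CCL19-KI side and 4 put the latter on the WT side. Both libraries were kept under their labels, and since both hold large amounts of the genes described here, results are given with and without them.

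The genes sit at 3 places in the genome (GRCm38, GENCODE M21). *Lcn8* (ENSMUSG00000036449, chr2:25653120-25656217, plus strand) and *Lcn5* (ENSMUSG00000026937, chr2:25657952-25661977, plus strand) are adjacent, 1734 bases apart, in a cluster of 8 lipocalin genes. *Lcn9* (ENSMUSG00000023210, chr2:25823153-25825537, plus strand) lies 161175 bases beyond *Lcn5*. *Serpina1f* (ENSMUSG00000021081, chr12:103688044-103695529, minus strand) is next to *Serpina1b*, in the row of 6 *Serpina1* genes. *Crisp1* (ENSMUSG00000025431, chr17:40293758-40319207, minus strand) has *Crisp3* as its neighbour.

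*Crisp1* with *Serpina1f*, and *Lcn8* with *Lcn9*, were mostly found in the same libraries. Of the adjacent genes, *Lcn5* reached 1 normalized CPM in 6 libraries and *Lcn8* in only 2 of these 6. The promoters of the 5 genes are shown for this reason. Each is 300 bases of the strand of the gene, ending shortly after the RefSeq start (GRCm38.p6), at chr17:40319158-40319457 for *Crisp1*, chr12:103695480-103695779 for *Serpina1f*, chr2:25657702-25658001 for *Lcn5*, chr2:25652868-25653167 for *Lcn8* and chr2:25822903-25823202 for *Lcn9*. Capitals mark TGTTCT, the core recognised by the androgen receptor, or its reverse complement AGAACA.
Crisp1: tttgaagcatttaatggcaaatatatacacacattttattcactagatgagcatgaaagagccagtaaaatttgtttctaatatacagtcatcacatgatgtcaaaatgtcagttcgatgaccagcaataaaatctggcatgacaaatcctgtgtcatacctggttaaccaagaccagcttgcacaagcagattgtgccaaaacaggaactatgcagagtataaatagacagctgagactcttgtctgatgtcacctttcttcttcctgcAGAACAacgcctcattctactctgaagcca
Serpina1f: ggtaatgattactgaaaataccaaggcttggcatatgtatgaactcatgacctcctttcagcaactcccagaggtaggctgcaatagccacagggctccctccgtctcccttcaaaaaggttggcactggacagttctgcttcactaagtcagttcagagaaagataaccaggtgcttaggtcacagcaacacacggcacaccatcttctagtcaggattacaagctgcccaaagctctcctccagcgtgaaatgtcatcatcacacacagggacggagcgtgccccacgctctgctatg
Lcn5: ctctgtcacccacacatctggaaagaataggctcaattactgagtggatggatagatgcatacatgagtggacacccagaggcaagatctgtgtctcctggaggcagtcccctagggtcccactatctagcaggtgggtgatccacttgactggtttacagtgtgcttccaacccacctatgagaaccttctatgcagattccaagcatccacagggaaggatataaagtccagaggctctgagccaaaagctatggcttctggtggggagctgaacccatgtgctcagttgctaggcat
Lcn8: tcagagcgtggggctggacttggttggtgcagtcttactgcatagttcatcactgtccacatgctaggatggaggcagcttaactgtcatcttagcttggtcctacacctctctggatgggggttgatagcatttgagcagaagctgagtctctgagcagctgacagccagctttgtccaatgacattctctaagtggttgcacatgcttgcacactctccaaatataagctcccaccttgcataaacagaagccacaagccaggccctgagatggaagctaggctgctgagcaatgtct
Lcn9: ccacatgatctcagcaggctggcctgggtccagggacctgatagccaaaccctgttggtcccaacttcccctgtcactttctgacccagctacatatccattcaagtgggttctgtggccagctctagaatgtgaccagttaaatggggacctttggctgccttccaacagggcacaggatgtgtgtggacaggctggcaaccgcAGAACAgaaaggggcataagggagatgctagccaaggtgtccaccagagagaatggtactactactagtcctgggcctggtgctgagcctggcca
The letters were found once in the *Crisp1* and once in the *Lcn9* promoter, in 2 of 5 promoters. They were found in 16 of 38 promoters of 33 other epididymal genes (42.1%) and in 19.0% of all 32851 promoters of the same length. A match of 6 letters is a description of the sequence, and its absence from such a window says nothing of the receptor.

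*Crisp1* was the most widely found of the 5 genes. It had more than 3 reads in 20 of 36 libraries, at least 10 normalized CPM in 11 and at least 100 in 9, and no read in 6. *Serpina1f* had more than 3 reads in 19 libraries, at least 10 CPM in 9 and at least 100 in 6. *Lcn5* reached 1 CPM in 6 libraries and 10 CPM in 2. *Lcn8* and *Lcn9* reached 1 CPM in the same 2 libraries, at 650.1 CPM or above, and were at most 0.306 CPM, or 5 reads, in the other 34. The highest 2 libraries thus held 69.4% of the summed *Crisp1* level, 73.2% of *Serpina1f*, 95.4% of *Lcn5* and 99.9% of *Lcn8* and of *Lcn9*. Without the 2 libraries whose *Ccl19* went against the label, *Crisp1* reached 10 CPM in 9 of 34 libraries, *Serpina1f* in 7, and *Lcn5*, *Lcn8* and *Lcn9* in 1 each. In bulk tissue, fewer cells of a type and less RNA per cell cannot be told apart.

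**Figure D1:**
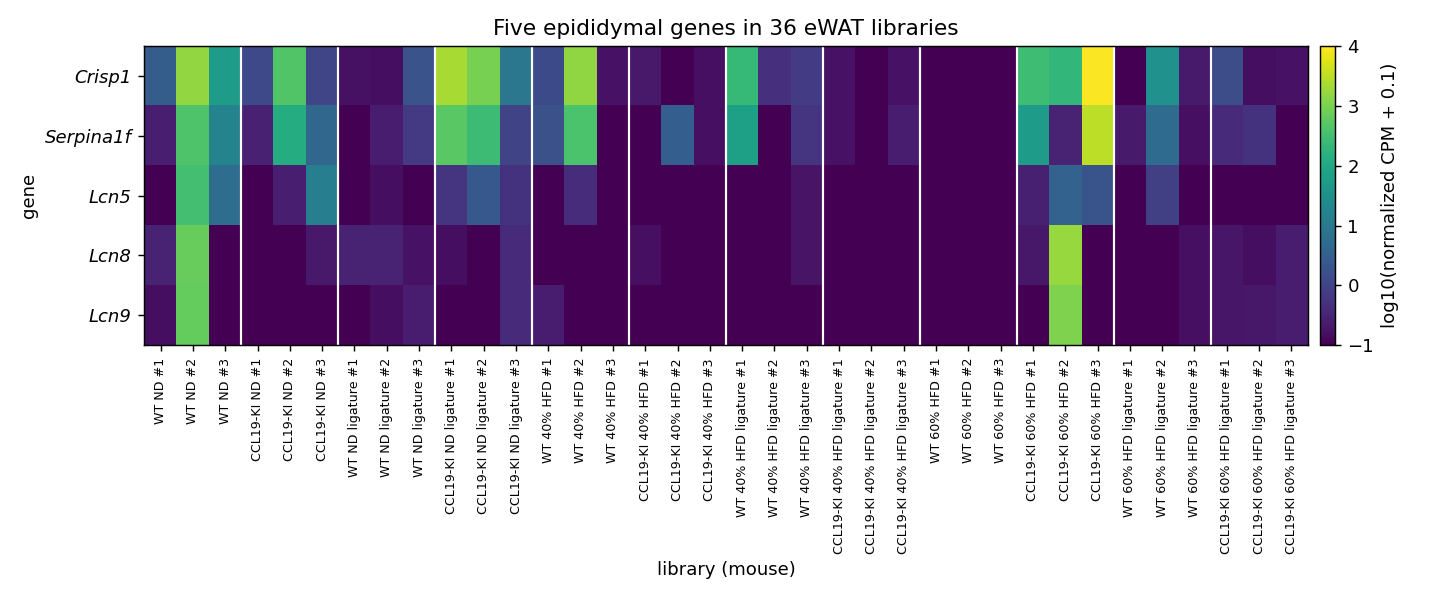
Normalized CPM of the 5 genes (rows) in each of the 36 libraries (columns, grouped by diet, ligature and genotype, with white lines between groups and # for the replicate), as log10(CPM + 0.1) on a colour scale. *Crisp1* and *Serpina1f* are bright in libraries of several groups, whereas *Lcn8* and *Lcn9* are bright in 2 libraries.

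Any of the 5 genes reached 10 normalized CPM in 12 of the 36 libraries, in 7 of the 12 groups. These were 5 of 18 WT and 7 of 18 CCL19-KI libraries, 8 of 18 without and 4 of 18 with ligature, and 6 of 12 under an ND, 2 of 12 under a 40% HFD and 4 of 12 under a 60% HFD. The replicates of a group were mostly far apart.

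Among WT mice fed an ND, *Crisp1* was 2.83, 1532 and 58.3 normalized CPM in replicates 1 to 3 without ligature, the middle value from the library labelled WT ND replicate 2. It was 0.069, 0.0507 and 1.78 in the ligatured WT mice of this diet. The lowest of the unligatured libraries had 52 reads, and the ligatured values lie at a few reads or less except in replicate 3, which had 23 reads. Among CCL19-KI mice fed an ND, *Crisp1* was 1.18, 436.0 and 1.00 without ligature and 2208, 932.1 and 9.62 with ligature. A single replicate held the gene in quantity in the former group, and 2 replicates in the latter.

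Under a 40% HFD, *Crisp1* was 1.2, 1457 and 0.0758 in WT mice without ligature and 223.4, 0.38 and 0.642 in ligatured WT mice. Again a single replicate of each group stood far above the other two. In CCL19-KI mice of this diet it was 0.122, 0 and 0.0627 without ligature and 0.0752, 0 and 0.0731 with ligature, at most 2 reads a library. Under a 60% HFD, *Crisp1* had no read in any of the 3 WT libraries without ligature, and was 274.7, 199.9 and 9541 in the corresponding CCL19-KI libraries, the last being the library labelled CCL19-KI 60% HFD replicate 3. In this pair of groups alone was *Crisp1* held in quantity by all 3 replicates of one and by none of the other. In the ligatured mice of this diet it was 0, 33.4 and 0.126 in WT and 1.42, 0.0555 and 0.0745 in CCL19-KI.

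*Serpina1f* was found mostly in the libraries that held *Crisp1*. It was 0.163, 418 and 17.4 normalized CPM in WT ND replicates 1 to 3, and 0, 0.152 and 0.619 in their ligatured counterparts. In CCL19-KI mice fed an ND it was 0.189, 127 and 4.42 without ligature and 536.7, 271.2 and 0.98 with ligature. The replicate with most *Crisp1* was thus also that with most *Serpina1f* in these groups. Under a 40% HFD, *Serpina1f* was 1.65, 381.9 and 0 in WT mice without ligature and 70.5, 0 and 0.481 with ligature, and in CCL19-KI mice it was 0, 3.08 and 0.0627 without ligature and 0.0752, 0 and 0.146 with ligature. CCL19-KI 40% HFD replicate 2 is the only one of these with *Serpina1f* (46 reads) and no *Crisp1*. Under a 60% HFD, *Serpina1f* had no read in the 3 WT libraries and was 54.5, 0.216 and 3170 in the CCL19-KI libraries without ligature. CCL19-KI 60% HFD replicate 2 had 2772 reads of *Crisp1* and 3 of *Serpina1f*. In the ligatured mice of this diet, *Serpina1f* was 0.13, 5.54 and 0.0631 in WT and 0.294, 0.444 and 0 in CCL19-KI.

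Across groups, the mean of *Crisp1* was highest in unligatured CCL19-KI mice of the 60% HFD (3338 ± 5371 normalized CPM, SD, n = 3), followed by ligatured CCL19-KI mice fed an ND (1050 ± 1104), WT mice fed an ND (531.1 ± 867.4), WT mice fed a 40% HFD (486.2 ± 841.0), CCL19-KI mice fed an ND (146 ± 251.1), ligatured WT mice fed a 40% HFD (74.8 ± 128.7) and ligatured WT mice fed a 60% HFD (11.2 ± 19.2). The other 5 groups had means below 1. *Serpina1f* followed the same order in these first 7 groups, from 1075 ± 1815 to 1.91 ± 3.14. For all 5 genes, each of the 11 pairs of neighbours in the order of the group means overlapped in range. The gap between neighbouring means was larger than the SD of either group only at the low end, between ligatured CCL19-KI mice of the 40% HFD and the WT 60% HFD mice without a read, for *Crisp1* (0.0494 ± 0.0428 against 0) and *Serpina1f* (0.0738 ± 0.0731 against 0), at most 2 reads a library. The SDs of the 7 leading groups for *Crisp1* were larger than their means, as most of each mean came from 1 mouse.

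The level of *Crisp1* relative to *Serpina1f* varied little where both genes were abundant and widely elsewhere. In the 9 libraries with at least 10 normalized CPM of both genes, *Crisp1* was 3.01 to 5.04 times *Serpina1f*, with a median of 3.44, while *Crisp1* itself ranged from 58.3 to 9541 in them. The ratio was 3.17 to 5.04 in the 7 libraries left without the 2 whose *Ccl19* went against the label. In the 17 libraries with more than 3 reads of both, it ran from 0.227 in CCL19-KI ND replicate 3 (17 and 75 reads) to 9.81 in ligatured CCL19-KI ND replicate 3 (157 and 16 reads), and CCL19-KI 60% HFD replicate 2, with 2772 reads of *Crisp1* and 3 of *Serpina1f*, lay outside both sets. Every library with 10 CPM of *Serpina1f* also had 10 CPM of *Crisp1*, and 81.8% of those with 10 CPM of *Crisp1* had that of *Serpina1f*.

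*Lcn5* was found mainly in the library labelled WT ND replicate 2, with 324.7 normalized CPM (5833 reads), 91.5% of its sum over the 36 libraries. It was 13.8 in CCL19-KI ND replicate 3, 6.00 in WT ND replicate 3, 3.68 in CCL19-KI 60% HFD replicate 2, 2.27 in ligatured CCL19-KI ND replicate 2 and 1.91 in the library labelled CCL19-KI 60% HFD replicate 3. It was below 1 in the other 30 libraries, with no read in 22. CCL19-KI ND replicate 3 thus held more *Lcn5* than *Crisp1* or *Serpina1f*, whereas ligatured CCL19-KI ND replicate 1, with 41710 reads of *Crisp1*, had 9 reads of *Lcn5*.

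*Lcn8* and *Lcn9* were held by the library labelled WT ND replicate 2, at 695.6 and 650.1 normalized CPM, and by CCL19-KI 60% HFD replicate 2, at 1730 and 1067. *Lcn8* was 1.07 and 1.62 times *Lcn9* in these libraries. The highest value elsewhere, 0.306 for both genes, was in ligatured CCL19-KI ND replicate 3. The library labelled CCL19-KI 60% HFD replicate 3, with 194404 reads of *Crisp1*, had no read of either lipocalin, which allows up to 0.147 CPM. If the library labelled WT ND replicate 2 is left out, both lipocalins rest on 1 library of 34.

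**Figure D2:**
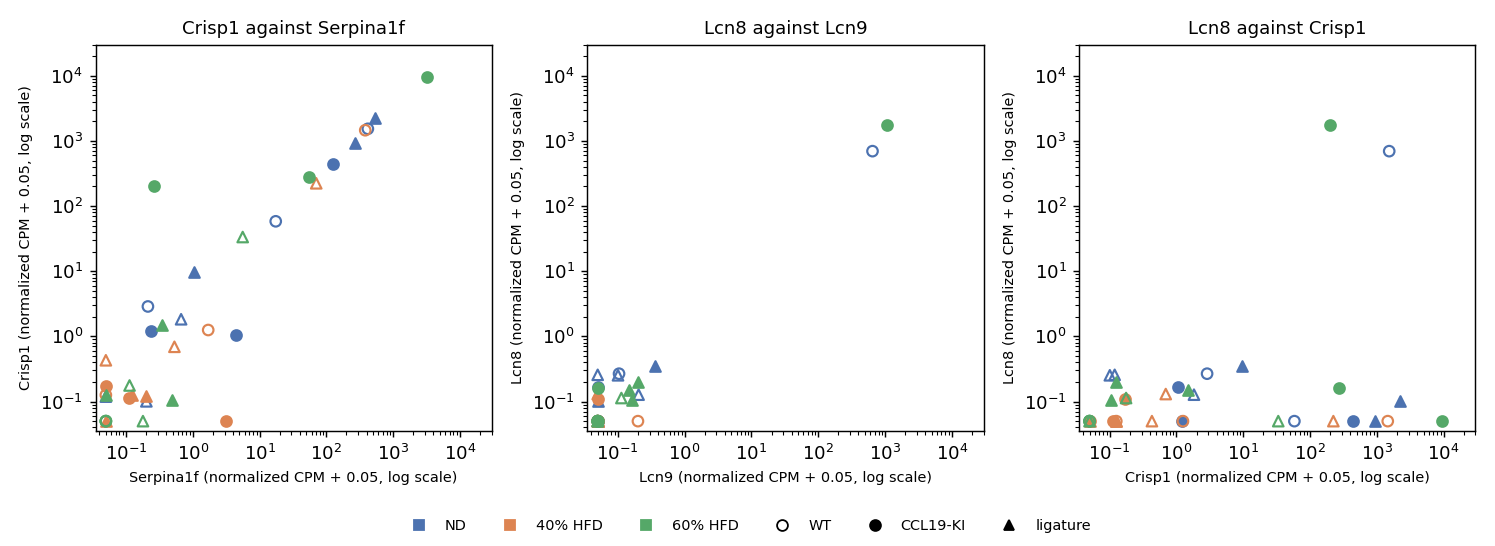
Each point is 1 of the 36 libraries, placed by normalized CPM + 0.05 of 2 genes on log scales, with colours for diet, open symbols for WT, filled symbols for CCL19-KI and triangles for ligature. *Crisp1* and *Serpina1f* lie along a line where both are abundant. Libraries off it include 1 with 199.9 CPM of *Crisp1* and 0.216 of *Serpina1f*, and 1 with 3.08 of *Serpina1f* and no *Crisp1*. *Lcn8* and *Lcn9* are high in 2 libraries, and high *Crisp1* comes with and without *Lcn8*.

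The libraries thus differed in which of the genes they held. The library labelled WT ND replicate 2 held all 5 genes. Per kilobase of exon, a scale on which genes can be compared, its levels were 1082 for *Crisp1*, 1068 for *Lcn8*, 774.9 for *Lcn9*, 368.1 for *Lcn5* and 131.2 for *Serpina1f*. CCL19-KI 60% HFD replicate 2 held *Lcn8* and *Lcn9* at 2657 and 1272 CPM per kilobase, with *Crisp1* at 141.2, *Lcn5* at 4.17 and *Serpina1f* at 0.0679. The other 9 libraries with at least 10 CPM of *Crisp1* also held *Serpina1f*, with *Lcn8* and *Lcn9* below 1 CPM and *Lcn5* at 6.00 CPM or less, led on the *Crisp1* scale by the library labelled CCL19-KI 60% HFD replicate 3, with 6738 CPM per kilobase of *Crisp1* and 995.3 of *Serpina1f*.

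Other genes of the epididymal epithelium were divided in the same way. Of 41 such genes in a list made for secreted and membrane proteins of the epididymis, 39 were analysed. At least 1 normalized CPM was reached by 37 of them in the library labelled WT ND replicate 2 and by 31 in CCL19-KI 60% HFD replicate 2, against 18 in CCL19-KI 60% HFD replicate 1, 16 in WT 40% HFD replicate 2, and 1 to 11 in the other 32 libraries. *Gpx5*, a secreted glutathione peroxidase of the epididymis, was 5722 and 3636 CPM in the first 2 libraries and at most 11.1 elsewhere. *Adam7*, a sperm membrane protein made by the epididymis, was 2201 and 1711 in them and at most 66.0 elsewhere. *Rnase10* (657.5 and 1061), *Cst11* (374.5 and 472.5), *Ovch2* (205 and 374.8) and *Spag11b* (620.9 and 472.4) reached 1 CPM in these 2 libraries and no other. The 3 other epididymal genes of the lipocalin cluster had the same distribution. *Lcn10* was 179.8 and 304.9, *Lcn6* 51.4 and 38.6, and *Lcn12* 54.7 and 1.87, and all were below 1 in the remaining 34 libraries.

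*Akr1b7*, an aldo-keto reductase abundant in the vas deferens, instead went with *Crisp1* and *Serpina1f*. It was 38408 normalized CPM in the library labelled CCL19-KI 60% HFD replicate 3, 7337 in ligatured CCL19-KI ND replicate 1, 4871 in the library labelled WT ND replicate 2, 4088 in ligatured CCL19-KI ND replicate 2 and 3803 in WT 40% HFD replicate 2, and 1.73 in CCL19-KI 60% HFD replicate 2. In the 10 libraries with at least 10 CPM of both genes, it was 0.904 to 4.39 times *Crisp1*. *Spink8*, a Kazal-type protease inhibitor, was 1118 in the library labelled CCL19-KI 60% HFD replicate 3, 410.5 in ligatured CCL19-KI ND replicate 1 and 11.4 in CCL19-KI 60% HFD replicate 2. *Defb42*, a beta-defensin, was held by both kinds of library, with 338.6 in the first of these, 230.1 in the library labelled WT ND replicate 2 and 151.2 in CCL19-KI 60% HFD replicate 2.

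**Figure D3:**
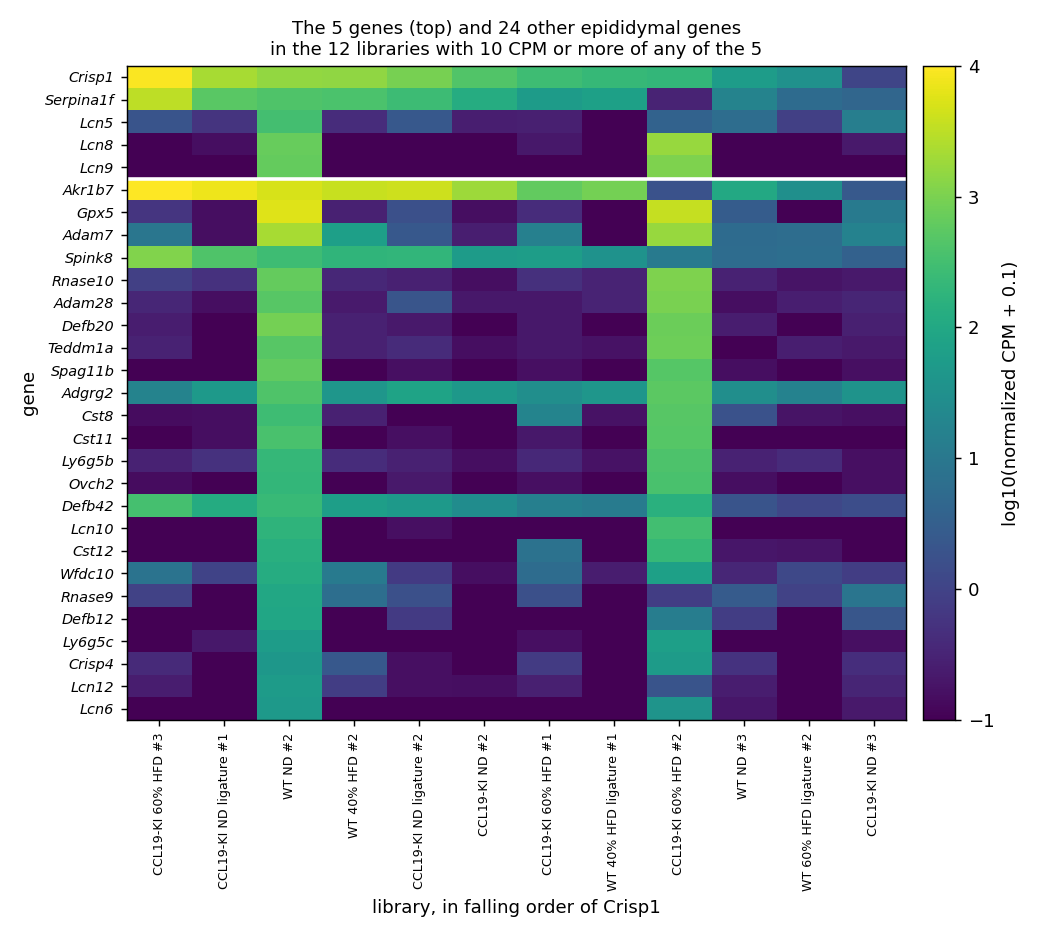
The 5 genes (above the white line) and the 24 other epididymal genes with the highest level in any library (rows), in the 12 libraries with at least 10 normalized CPM of any of the 5 (columns, in falling order of *Crisp1*), as log10(CPM + 0.1) on a colour scale. *Akr1b7* and *Spink8* are bright beside *Crisp1*, and most other genes are bright in the library labelled WT ND replicate 2 and in CCL19-KI 60% HFD replicate 2.

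The genes most like each member were sought among 17852 genes that reached 1 normalized CPM in 3 or more libraries, by Pearson's r of log2(CPM + 1) over the 36 libraries. These correlations share the libraries, rest on those with high levels and are given as a description. For *Crisp1*, they were *Spink8* (r = 0.979, and 0.972 without the 2 libraries highest in *Crisp1*), *Akr1b7* (0.959 and 0.942), *Defb42* (0.951 and 0.93), *Ptgs2*, *Slc28a3*, *Pax8*, *Wfdc15b* and *Prom1* (0.928 to 0.937). *Ptgs2*, which encodes cyclooxygenase-2, was 6618 in the library labelled CCL19-KI 60% HFD replicate 3, 1055 in ligatured CCL19-KI ND replicate 1 and 2.48 in WT 60% HFD replicate 1. *Serpina1f* itself had an r of 0.937 with *Crisp1*.

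For *Serpina1f*, the most alike were *Akr1b7* (0.982, and 0.976 without the highest 2), *Gm9573*, *Crygc*, *Spink8*, *Ptgs2*, *Anxa13*, *Cwh43* and *Cited1* (0.966 to 0.976). For *Lcn5*, they were *Epp13* (0.973, and 0.863 without the highest 2), *9230113P08Rik*, *Ido1*, *Rnase9*, *Spink5*, *Teddm1b*, *Defb12* and *Rhcg* (0.885 to 0.948). Those of *Lcn5* depend more on the highest libraries, as *Rhcg* was at 0.608 and *Rnase9* at 0.633 without them. *Lcn5* had an r of 0.471 with *Crisp1* and 0.458 with *Serpina1f*. Leaving out the 2 libraries whose *Ccl19* went against the label, r was 0.972 for *Spink8* with *Crisp1*, 0.977 for *Akr1b7* with *Serpina1f* and 0.955 for *Epp13* with *Lcn5*. *Lcn8* and *Lcn9* reached 1 CPM in too few libraries to be compared in this way.

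Marker genes of other cell types beside the epididymal fat were measured in the same libraries. Smooth muscle surrounds the epididymal duct and the vas deferens, and the summed level of 12 smooth muscle genes was 797.3 to 7066 normalized CPM in the 9 libraries with at least 100 CPM of *Crisp1* and 193.5 to 530.1 in the other 27. The 9 libraries highest in *Crisp1* were thus the 9 highest in the smooth muscle sum. The same was true of 7 of 34 libraries without the 2 whose *Ccl19* went against the label. The other 27 libraries included WT ND replicate 3 and ligatured WT 60% HFD replicate 2, with 58.3 and 33.4 CPM of *Crisp1*. The order within the 9 differed. *Actg2* (enteric smooth muscle actin) was 730.0 in ligatured CCL19-KI ND replicate 1, with 2208 CPM of *Crisp1*, and 69.9 in the library labelled CCL19-KI 60% HFD replicate 3, with 9541, and CCL19-KI 60% HFD replicate 2 had 576.8 of *Actg2* but 9.73 of *Cnn1* (calponin) and none of *Pcp4*.

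Germ cell and sperm genes were found in fewer of them. The sum of 9 such genes was highest in CCL19-KI 60% HFD replicate 1 (1147 normalized CPM), followed by the library labelled CCL19-KI 60% HFD replicate 3 (197), WT ND replicate 3 (179.9), ligatured WT ND replicate 3 (76.1) and ligatured WT 40% HFD replicate 2 (72.8). The last 2 had 1.78 and 0.38 CPM of *Crisp1*, and ligatured CCL19-KI ND replicate 1, with 2208 of *Crisp1*, had no read of the protamine gene *Prm1*. *Insl3*, a hormone of Leydig cells, was 41.9 in CCL19-KI 60% HFD replicate 1 and at most 1.73 in any other library. Of the 8 genes of the seminal vesicle and prostate, the 2 analysed, *Svs5* and *Spink1*, summed to at most 2.00 CPM in any library.

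The sum of 11 general epithelial genes was 185.5 to 1684 normalized CPM in the 9 libraries highest in *Crisp1* and 61.3 to 433.2 in the other 27. Of the 9 libraries highest in this sum, 7 were among the 9 highest in *Crisp1*. *Epcam*, *Cdh1* and *Pax2* were higher in the library labelled CCL19-KI 60% HFD replicate 3 than in any other. They were at 118.8, 233.9 and 79.2 in it, against medians of 0.548, 5.89 and 0.196 over the 36 libraries. The sum of 6 genes of the clear cells of the epididymis, which kidney cells share, did not follow *Crisp1*. It was 9.85 to 98.8 in the 9 libraries highest in *Crisp1* and 7.14 to 135.2 in the other 27. All 6 genes reached 1 normalized CPM only in the library labelled WT ND replicate 2, and at most 4 did elsewhere. From an ND to a 60% HFD, the median sum went from 18.9 to 103.7 in ligatured WT mice. It went from 19.2 to 72.3 in ligatured and 19.2 to 56.1 in unligatured CCL19-KI mice, and from 60.3 to 50.7 in unligatured WT mice. How much of the sum came from clear cells was not tested. Of the 6 genes, the transcription factor *Foxi1* was 11.1 in the library labelled WT ND replicate 2, where the sum was 60.3, and at most 1.77 in the others. Adipocyte genes summed to 7955 to 23938 in the 9 libraries highest in *Crisp1* and 4966 to 29946 in the other 27, mesothelial genes to 327.0 to 1204 and 106.8 to 1779, and kidney tubule genes to 66.2 to 186.7 and 25.1 to 468.9. The part of smooth muscle, sperm or other cells in the levels of the 5 genes was not tested.

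**Figure D4:**
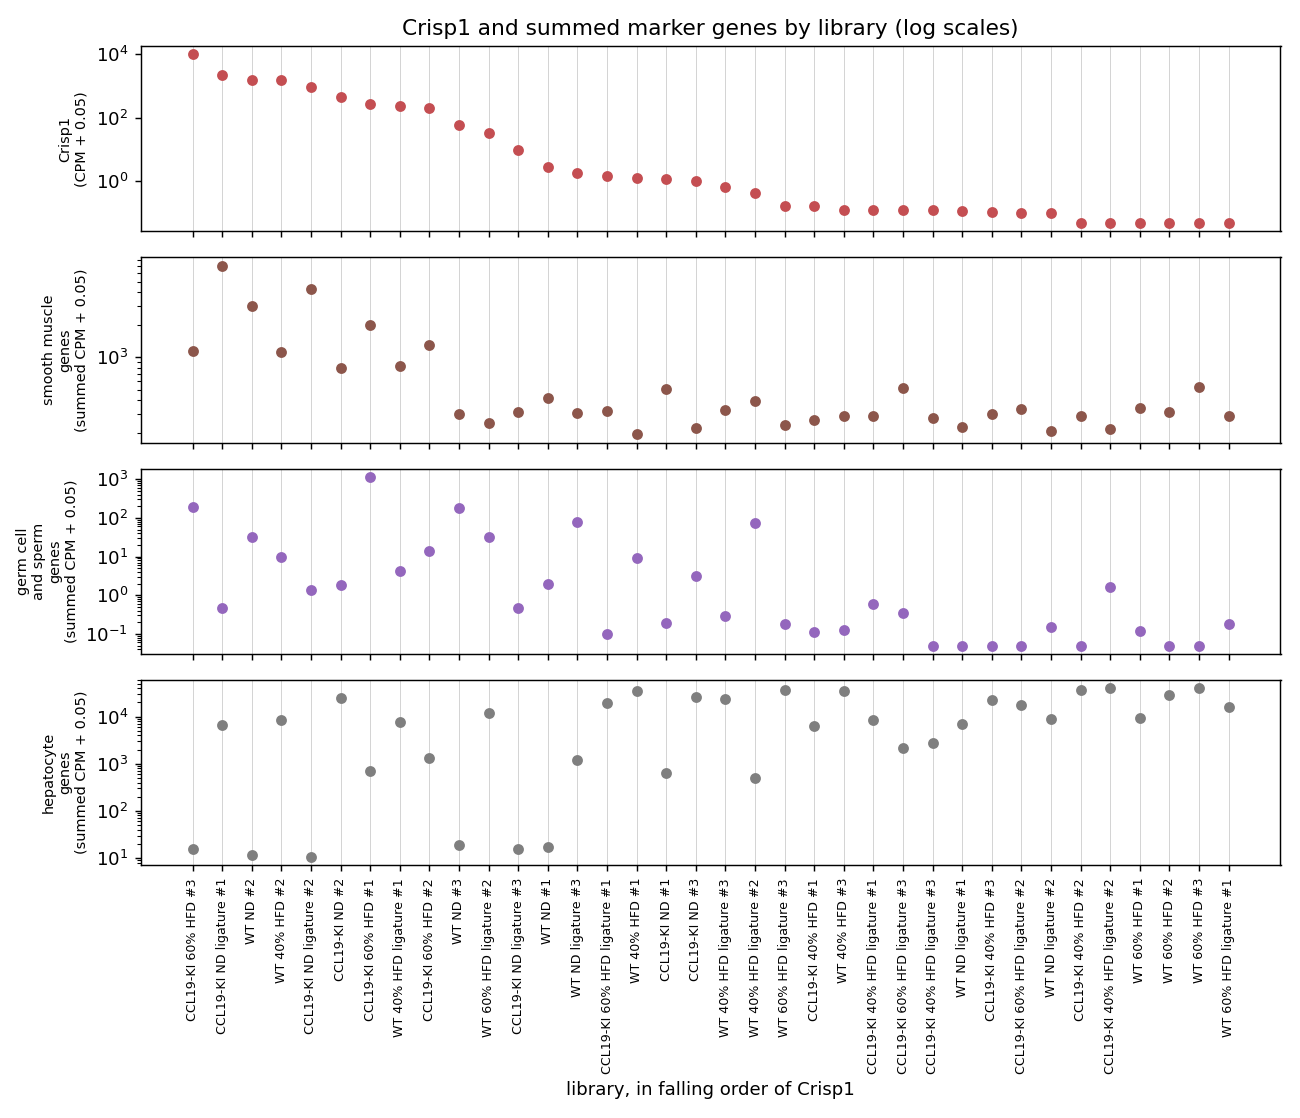
*Crisp1* (top) and the summed normalized CPM of 12 smooth muscle, 9 germ cell and sperm and 10 hepatocyte genes, each + 0.05 on a log scale, in the 36 libraries in falling order of *Crisp1*. The 9 leftmost libraries are above all others in smooth muscle genes. They include 5 of the 9 libraries highest in germ cell and sperm genes and 1 of the 9 highest in hepatocyte genes.

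As *Serpina1f* lies among genes of the liver, its relatives were compared. *Serpina1a* to *Serpina1e* were between 1.03 and 1.96 normalized CPM in the library labelled CCL19-KI 60% HFD replicate 3, which had most *Serpina1f*. In WT 60% HFD replicate 3, *Serpina1c* was 3076 and *Serpina1e* was 1200, and *Serpina1f* had no read. In CCL19-KI 40% HFD replicate 2, with 3.08 of *Serpina1f* and no *Crisp1*, *Serpina1c* was 2482, and *Alb* (albumin) was 23726. *Crisp1* relatives were apart as well, with *Crisp2* (testis) highest in CCL19-KI 60% HFD replicate 1 (170.0), *Crisp3* at most 1.23, and *Crisp4* (epididymis) at 44.1 in the library labelled WT ND replicate 2 and 55.5 in CCL19-KI 60% HFD replicate 2.

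The genes were chosen with the difference between ligatured CCL19-KI and WT mice fed an ND in view, so that this contrast is described without a test. On the log2(normalized CPM + 1) scale, *Crisp1* was 7.58 higher in the CCL19-KI mice and *Serpina1f* 5.75 higher. Without CCL19-KI replicate 3, the lowest of its group, these were 9.94 and 8.28, and without replicate 1, the highest, 6.09 and 4.24. *Lcn5* was 0.476, 2.27 and 0.429 normalized CPM in the CCL19-KI mice and 0, 0.0507 and 0 in the WT mice. *Lcn8* was 0.0529, 0 and 0.306 in the former and 0.207, 0.203 and 0.0774 in the latter, at most 5 reads in any.

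Genotype, ligature and diet were tested on the genes in contrasts that did not compare these CCL19-KI mice, by limma across all genes that reached 1 normalized CPM in 3 or more libraries of the fit. *Crisp1* and *Serpina1f* passed this filter in every fit, *Lcn5* in that of the mice without ligature, and *Lcn8* and *Lcn9* in none. The fit of the ligatured mice included the ligatured ND groups, and *Serpina1f* passed its filter only through the CCL19-KI mice of that diet, so that its values in ligatured mice are no independent test. The ligature effect in WT mice shares the ligatured WT mice fed an ND with the contrast the genes were chosen on. As the genes were picked for being high in some of these libraries, the tests are not independent of the choice, and a gene could pass the filter through a group in which it was high. By the Benjamini-Hochberg adjusted p of limma, 0 of 21 results passed 0.05, and 2 had an unadjusted p below 0.05. edgeR on the recovered reads called 0, with 8 at an unadjusted p below 0.05, and DESeq2 called 7 (*Lcn5* in 4 comparisons, *Serpina1f* in 2 and *Crisp1* in 1), with 10 at an unadjusted p below 0.05, and gave no adjusted p for 5. In the comparisons with these calls, DESeq2 called 0.216% to 17.2% of all genes. Its *Lcn5* call for genotype under a 40% HFD without ligature rested on 5 reads in WT 40% HFD replicate 2. The other libraries of that contrast had no read of the gene. The counts of each tool include the *Serpina1f* results in ligatured mice. Calls given below are those of limma unless another tool is named.

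Without ligature and under an ND, *Crisp1*, *Serpina1f* and *Lcn5* differed between genotypes by log2 fold changes (CCL19-KI against WT) of -2.50 ± 2.72 (SE), -1.15 ± 2.79 and -2.35 ± 1.48, and 0 of 3 were called, where 7.28% of all genes were. Without the 2 libraries whose *Ccl19* went against the label, these were -0.28, 1.02 and -0.0359, so that the direction for *Serpina1f* was reversed. Leaving out each mouse in turn, *Serpina1f* kept its direction in 4 of 6 fits. Under a 40% HFD they were -3.83 ± 2.72, -2.62 ± 2.79 and -0.13 ± 1.48, and 0 of 3 members and 0% of all genes were called. Without WT 40% HFD replicate 2, the *Crisp1* and *Serpina1f* differences of this diet were -0.538 and 0.00131. The intervals of these differences were wide, for *Crisp1* under an ND reaching from -8.33 to 3.32.

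Under a 60% HFD without ligature, *Crisp1* was 9.66 ± 2.72 (SE) higher on the log2 scale in CCL19-KI mice (95% confidence interval 3.84 to 15.5), with an unadjusted p of 0.00306 and an adjusted p of 0.0583 by limma. In this contrast, 4169 of 16923 genes had an unadjusted p below 0.05 by limma. None of the 3 WT libraries had a read of *Crisp1*. Those labelled CCL19-KI had 199.9 to 9541 normalized CPM, the highest in replicate 3, whose *Ccl19* went against the label. Against the floor of 3 reads per library, the CCL19-KI mean was at least 13342-fold higher and its lowest library at least 798.8-fold higher. The mean was 237.3 normalized CPM without the library labelled CCL19-KI 60% HFD replicate 3, at least 948.3-fold higher. *Serpina1f* was 5.90 ± 2.79 higher (adjusted p = 0.207) and *Lcn5* 1.33 ± 1.48 higher (adjusted p = 0.621). Of the 3 members tested, 0 were called by limma, where 4.06% of all genes were, and 0 by edgeR, where 7.64% were. DESeq2 called *Lcn5* and *Serpina1f*, where it called 17.2% of all genes, and gave no adjusted p for *Crisp1*. With a pseudocount of 0.1 the adjusted p of limma for *Crisp1* was 0.0343. In a fit of only these 6 mice it was 0.0205, but there the gene passed the filter only through the CCL19-KI libraries, where it was high, and this value supports nothing. Without the 2 libraries whose *Ccl19* went against the label, *Crisp1* was 7.88 higher (adjusted p = 0.0931), *Serpina1f* 3.04 and *Lcn5* 1.23. The genotype effect on *Crisp1* was 12.16 ± 3.85 larger under a 60% HFD than under an ND, with an adjusted p of 0.0624 by limma for this difference. Both libraries whose *Ccl19* went against the label enter this difference, which was not fitted without them. The genotype effects left without them were 7.88 under a 60% HFD and -0.28 under an ND.

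Of the 39 other epididymal genes analysed, 19 were tested in this contrast and 0 were called by limma, with 10 at an unadjusted p below 0.05. edgeR called 0, where it called 7.64% of all genes, and DESeq2 12, where it called 17.2%. The median log2 fold change of the 19 was 2.88, against 0.03 over all genes. A gene of these lists could pass the filter through the group in which it was high, so that these list results are a description. Of the 12 smooth muscle genes, 0 were called by limma, with 10 at an unadjusted p below 0.05, and edgeR called 0 and DESeq2 9. Over all genes, 4169 of 16923 had an unadjusted p below 0.05 by limma. Of the 9 germ cell and sperm genes, 4 were higher in CCL19-KI mice (*Odf1*, *Pgk2*, *Prm2* and *Smcp*), with log2 fold changes of 4.77, 3.74, 5.12 and 3.52. All 10 hepatocyte genes tested were lower in them, with a median of -6.03, and *Alb* was between 6.38 and 889.6 normalized CPM in the CCL19-KI libraries. Without the 2 libraries whose *Ccl19* went against the label, 5 of the 19 epididymal genes, 1 of the smooth muscle genes and 0 of the germ cell genes were called, the last with 9 of 9 at an unadjusted p below 0.05, and the hepatocyte genes called went from 10 to 1 of 10 (edgeR called 7 with all libraries). Without these 2 libraries, limma called 4.29% of all genes in this contrast, and 5052 of 16923 had an unadjusted p below 0.05. The genes tested there were those that passed the filter with all libraries of the fit.

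In ligatured mice, *Crisp1* differed between genotypes by -2.93 ± 2.00 (SE) under a 40% HFD and by -1.27 ± 2.00 under a 60% HFD. Limma called it in neither, where 0.042% and 0.0781% of all genes were called. DESeq2 called *Crisp1* under a 40% HFD, where it called 0.216% of all genes. *Serpina1f* differed by -2.14 ± 1.75 and -0.69 ± 1.75. As it passed the filter only through the ligatured CCL19-KI mice fed an ND, these values are given as a description. The fit of the 4 ligatured HFD groups alone, which *Serpina1f* did not enter, gave *Crisp1* an SE of 1.83 and adjusted p of 0.971 and 0.981 by limma. Each of the differences came from 1 WT mouse. Without ligatured WT 40% HFD replicate 1, the *Crisp1* and *Serpina1f* differences were -0.521 and -0.183 under a 40% HFD. Without ligatured WT 60% HFD replicate 2 they were 0.40 and 0.169 under a 60% HFD.

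In WT mice, the effect of the ligature averaged over diets was -1.58 ± 1.53 (SE) for *Crisp1* and -1.39 ± 1.26 for *Serpina1f*, and 0 of 2 members and 0.00609% of all genes were called. Without the library labelled WT ND replicate 2 it was -0.843 and -0.669, and without WT 40% HFD replicate 2 it was -0.485 and -0.516. In mice without ligature, a 40% HFD differed from an ND by -2.88 ± 1.93 for *Crisp1*, -1.79 ± 1.97 for *Serpina1f* and -2.48 ± 1.05 for *Lcn5*, averaged over genotypes. Of these, *Lcn5* had an unadjusted p of 0.0328 and an adjusted p of 0.583 by limma, and 0 of 3 members and 0.756% of all genes were called. DESeq2 called *Lcn5* in this contrast, and 3.53% of all genes. A 60% HFD differed from an ND by -0.05 ± 1.93, -0.85 ± 1.97 and -1.88 ± 1.05, and 0 of 3 members and 0.0118% of all genes were called. Here DESeq2 called *Lcn5* and *Serpina1f*, and 0.697% of all genes. Without the 2 libraries whose *Ccl19* went against the label, the *Lcn5* differences were -1.32 and -0.773, and that of *Crisp1* under a 60% HFD was 0.167.

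**Figure D5:**
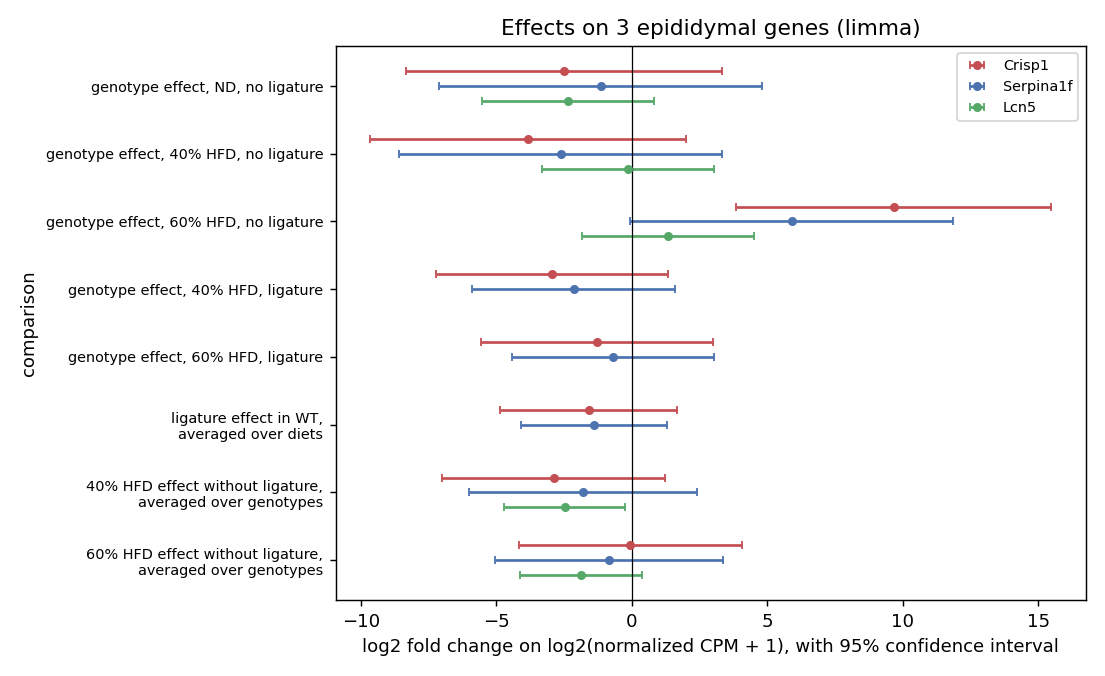
Log2 fold changes on log2(normalized CPM + 1) with 95% confidence intervals (x axis) of *Crisp1*, *Serpina1f* and *Lcn5* in the 8 comparisons tested (y axis). The interval of *Crisp1* under a 60% HFD without ligature, 3.84 to 15.5, and that of *Lcn5* under a 40% HFD against an ND lie off 0, and neither result had an adjusted p below 0.05.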

How the data were processed

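Whole eWAT RNA of 36 mice was sequenced as rRNA-depleted, strand-specific libraries. The authors trimmed reads with Trimmomatic, aligned them to transcripts with Bowtie2 within RSEM 1.3.0, and deposited gene-level signal values, normalized CPM made with edgeR from the counts. The study's methods name mm10 and the submitters' processing notes GRCm39, so that the coordinates, from GENCODE M21 (GRCm38), place genes by identifier only. RSEM can divide reads among similar genes, which leaves *Serpina1f* among its relatives, and the lipocalins, less certain.

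In each library the deposited CPM values were whole multiples of 1 read (100.0% within a tolerance of 0.01 reads), from which reads were recovered. Read totals and the floor of 3 reads cover counting error only. The main test was limma 3.58.1 (R 4.3.3) on log2(normalized CPM + 1), with a mean-variance trend, for genes with at least 1 CPM in at least 3 libraries of the fit. The 6 groups without ligature, the 6 ligatured groups and the 6 WT groups were fitted apart, with Benjamini-Hochberg adjustment over all genes and a threshold of 0.05. Scripts for statistics were tested on simulated data. Levels are given as mean ± SD over mice. The mice are separate animals per the labels.

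Alternatives were edgeR 4.0.16 and DESeq2 1.42.0 on the recovered reads, pseudocounts of 0.1 and 5, no filter or one of 6 libraries, median-of-ratios scaling, fits of only the groups compared, a replicate block and leaving out each mouse. Leaving out the 2 libraries whose *Ccl19* went against their labels, and the ligatured ND groups from the fit of ligatured mice, was chosen after seeing the data. The members, the lists and their genes were chosen with earlier results of these data known. Named are the members, the 8 genes most like each, and for each list the genes with the highest levels. *Lcn6*, *Lcn12*, *Ovch2*, *Cst11*, *Rnase10*, *Spag11b*, *Spink8*, *Defb42*, *Crisp4*, *Cnn1*, *Pcp4*, *Foxi1* and *Pax2* were named after their values were seen.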

Additional observations from a re-analysis of the deposited data

How the results depend on the processing

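Of 366 member values recomputed under an alternative, 340 kept their direction and side of the threshold, 9 passed it and 17 changed sign. Counts of libraries holding each gene stayed within 1.5 times under median-of-ratios scaling and scaling by library totals alone. Counts of all genes called moved more, and the cause was not tested. For genotype under an ND without ligature (1232 called) they were 0 in a fit of only these groups, 2832 by DESeq2, 1891 without the 2 libraries whose *Ccl19* went against the label and 5 to 3355 leaving out each mouse. Under a 40% HFD (0) they were 6 with only these groups, 37 by DESeq2 and 6 without the 2 libraries. Under a 60% HFD (687) they were 1082 and 28 with pseudocounts of 0.1 and 5, 61 with no filter, 1293 by edgeR, 2915 by DESeq2 and 0 to 1103 leaving out each mouse. With ligature, a 40% HFD (7) gave 4 with only these groups and 36 by DESeq2, and a 60% HFD (13) gave 2 with only these groups, 7 by edgeR, 51 by DESeq2 and 3 to 9 leaving out each mouse. The ligature in WT (1) gave 2 with a pseudocount of 5, 0 with no filter, 0 with the replicate block, 795 by DESeq2 and 0 to 129 leaving out each mouse. The 40% HFD effect (128) gave 275 and 6 with pseudocounts of 0.1 and 5, 66 with no filter, 256 by edgeR, 598 by DESeq2, 26 without the 2 libraries and 9 to 276 leaving out each mouse. The 60% HFD effect (2) gave 0 with either pseudocount, with the stricter filter and by edgeR, 1 with the block, 118 by DESeq2, 4 without the 2 libraries and 1 to 11 leaving out each mouse.

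Signs changed for *Crisp1* (3.9) and *Serpina1f* (3.33) in the WT ligature effect by DESeq2, for *Crisp1* in the 60% HFD effect with a pseudocount of 5 (0.41) and without the 2 libraries (0.167), and for *Serpina1f* under an ND without them (1.02). Leaving out each mouse, *Serpina1f* ran from -3.23 to 1.02 under an ND and -4.29 to 0.00131 under a 40% HFD without ligature, *Crisp1* from -2.15 to 0.40 and *Serpina1f* from -1.14 to 0.169 in ligatured mice of the 60% HFD, and they ran from -1.1 to 1.23 and -2.28 to 0.553 in the 60% HFD effect. *Lcn5* in ligatured mice of the ND was 2.97 and 0.259 higher in CCL19-KI with pseudocounts of 0.1 and 5. Same-numbered mice of the groups compared correlated by -0.636 to 0.341, so that numbers were not taken to pair them. With the replicate block, *Crisp1* under a 60% HFD had an adjusted p of 0.0504 by limma, and 0 of 21 member results were called. Over its alternatives this adjusted p ran from 0.0343 to 0.183, apart from the fit of only these 6 mice (0.0205). At the lowest depth, 3 reads are 0.25 CPM, which limits what can be said of *Lcn8* and *Lcn9*.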
